A study of Homo sapiens with 6 samples.

Results

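The interferon response and RNA sensor genes are a set of 35 protein-coding genes, chosen by name, that were read from the 50868 genes of the deposited table. All 35 names were found there. Their transcripts were counted by RNA-seq in the leukaemia line CUTLL1, a long-established human model of T-cell acute lymphoblastic leukaemia, at 48 h. The 3 libraries of the treated arm came from cells infected with a lentivirus carrying an shRNA against AURKB (shAURKB), the gene of the mitotic kinase Aurora B. The 3 control libraries carried an shRNA named for GFP (shGFP). Cells of both arms were infected and selected with puromycin, so every library came from cells that carried a hairpin RNA and a lentivirus, and cells without them were not analysed here. The line is a single leukaemia, and the design text calls the 3 libraries of an arm biological replicates.

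Interferons are secreted signals of virus infection. They bind receptors whose kinases JAK1 and TYK2 phosphorylate transcription factors, among them STAT2, which joins IRF9 to bind a promoter element called the interferon-stimulated response element (ISRE). Cytosolic sensors recognise double-stranded RNA: RIG-I (encoded by DDX58) and MDA5 (IFIH1) signal through the adaptor MAVS, the kinase PKR (EIF2AK2) blocks translation, and the OAS enzymes make oligoadenylates that activate the ribonuclease RNase L. Most of the 35 genes are both parts of this defence and induced by it.

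Promoter windows are shown for 5 genes, among them OAS1, OAS3, IFI44 and IFITM3, which were lower with AURKB shRNA, and IFIT1, as an IFIT gene with paired matches. Each sequence is the reference from RefSeq (GRCh38.p14), 5′ to 3′ on the gene's strand, and ends at the base before an annotated start site. Capitals mark the ISRE core, searched as GAAA, any 2 bases and GAAA, and for the other strand as TTTC, any 2 bases and TTTC.
OAS1, chr12:112906712-112906961, plus strand: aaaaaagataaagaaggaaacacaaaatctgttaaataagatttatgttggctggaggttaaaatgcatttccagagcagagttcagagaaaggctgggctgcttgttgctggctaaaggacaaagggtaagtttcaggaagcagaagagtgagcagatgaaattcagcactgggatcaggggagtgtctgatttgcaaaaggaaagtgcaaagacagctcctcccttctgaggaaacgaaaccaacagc
OAS3, chr12:112938224-112938473, plus strand: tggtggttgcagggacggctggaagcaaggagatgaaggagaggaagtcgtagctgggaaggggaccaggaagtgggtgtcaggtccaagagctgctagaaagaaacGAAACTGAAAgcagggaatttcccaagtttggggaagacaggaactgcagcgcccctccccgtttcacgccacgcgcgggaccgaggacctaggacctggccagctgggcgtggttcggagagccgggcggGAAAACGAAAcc
IFI44, chr1:78649539-78649788, plus strand: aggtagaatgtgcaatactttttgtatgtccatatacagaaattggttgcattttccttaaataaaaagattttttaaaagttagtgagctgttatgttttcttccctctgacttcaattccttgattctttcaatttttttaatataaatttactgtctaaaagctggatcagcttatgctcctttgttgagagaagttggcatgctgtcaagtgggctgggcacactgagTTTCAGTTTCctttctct
IFIT1, chr10:89392503-89392622, plus strand: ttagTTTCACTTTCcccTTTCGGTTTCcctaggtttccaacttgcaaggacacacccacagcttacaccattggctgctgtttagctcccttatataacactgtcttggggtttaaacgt
IFITM3, chr11:320861-320980, minus strand: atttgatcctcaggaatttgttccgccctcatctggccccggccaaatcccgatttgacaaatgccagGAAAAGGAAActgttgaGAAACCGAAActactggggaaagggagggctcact
The OAS1 window held no match to these letters, which says only that this spelling is absent from it. OAS3 held 2 matches, IFIT1 and IFITM3 2 each in the stretch shown, and IFI44 1. Over whole windows of 300 bases (250 before and 50 after a start site, any window of a gene), 17 of the 26 members with an entry held the core (65.4%), against 4.38% of 27305 genes in the RefSeq table. The core of the gamma-activated site, searched as TTC, any 3 bases and GAA, was in 8 of the 26 (30.8%) and in 9.38% of genes. In 4 members a match to 1 core overlapped a match to the other. OAS2, OASL, DHX58, IFIT2, IRF7, USP18, MX2, TRIM22 and IFITM2 had no entry. Among members with an entry, the ISRE core was in 3 of the 4 called lower, in EIF2AK2, the single one called higher, and in 11 of the 19 not called.

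Library totals ran from 10154187 to 11922979 counts. AURKB itself checked the labels: it was at 100.4, 97.0 and 107 CPM (counts scaled to library depth, with TMM factors) in shGFP replicates 1 to 3 and at 39.8, 43.9 and 36.0 in shAURKB replicates 1 to 3. Of 13 markers of T-lineage leukaemia, 12 reached 1 CPM in at least 3 libraries, and only the pre-TCR gene PTCRA did not. The list went both ways: CD3D, CD3E, CD2 and LCK were called higher, CD1B, CD1E and DNTT lower, and the other 5 tested were not called. Their sum was 3654 to 3776 CPM in the controls and 3182 to 3469 with AURKB shRNA. The gene with the largest drop in CPM was TCF7, at 934 to 991 CPM in the controls and 370.3, 745 and 772 CPM in the treated arm, and it was not called. Markers of myeloid cells summed to at most 1.09 CPM, with LYZ, S100A8, S100A9 and FCGR3A at 0 reads. CLEC4C, a marker of the plasmacytoid dendritic cells that secrete interferon, was at 0 reads, and the 4 markers of that list summed to 0.671 to 2.40 CPM in the controls and 1.117 to 3.15 CPM with AURKB shRNA. Most of these reads were of SPIB, which was not called (edgeR adjusted p = 0.367). The B-cell list summed to 23.9 to 27.9 and 22.2 to 27.4 CPM, nearly all of it CD79A and CD79B, with MS4A1 and PAX5 at 0. The NK list summed to 10.9 to 12.5 and 8.504 to 9.19 CPM, nearly all NKG7. NKG7 was called lower (log2 fold change -0.36, edgeR adjusted p = 0.0458), and CD79A and CD79B were not called. The fibroblast list summed to 17.8 CPM in shGFP replicate 1, nearly all of it the 185 reads of COL1A2, and to no more than 0.394 CPM elsewhere, with COL3A1, DCN, LUM and PDGFRB at 0 reads in every library. The epithelial list summed to 9.31 CPM in shGFP replicate 1, nearly all of it KRT8, KRT18 and KRT19, and to no more than 1.17 CPM elsewhere. The part of these levels in the results was not tested, and in such bulk samples fewer cells of a type and less RNA per cell cannot be told apart. Without shGFP replicate 1, 3 members were called higher and 2 lower.

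The 35 genes did not move as a block. With AURKB shRNA, OAS2 rose 1.87-fold and TRIM22, EIF2AK2 and USP18 rose by smaller amounts, while OAS1, OAS3, DHX58, IFI44 and IFITM3 fell. The other 24 tested genes, among them all 4 STAT and IRF factors and all 4 IFIT genes, were not called. Of 35 members, 33 had enough reads to be tested, of which 4 rose and 5 fell (quasi-likelihood test of edgeR, p adjusted by Benjamini-Hochberg over 14818 genes, threshold 0.05). That is 27.3% of those tested, near the 23.3% called among all tested genes (12.5% higher and 10.9% lower). With upper-quartile scaling the split was 2 higher and 6 lower among the members, and 1325 higher and 2087 lower among all genes, beside 1847 and 1609 with TMM. The median log2 fold change of the tested members was -0.06, beside 0.00 for all tested genes, and the median size of a change was 0.21 for both. None of the 33 tested members changed 2-fold, and the 2 that were too low to test, IFI44L and MX1, have no fitted change. The library values of the arms did not overlap in 18 of 33 members (54.5%), 6 of them higher and 12 lower. Among all tested genes the share was 42.6%, with 3218 genes higher and 3095 lower. Summed, the 35 genes took 1699 to 1825 CPM of the total count in the controls and 1662 to 1759 CPM with AURKB shRNA.

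**Figure D1:**
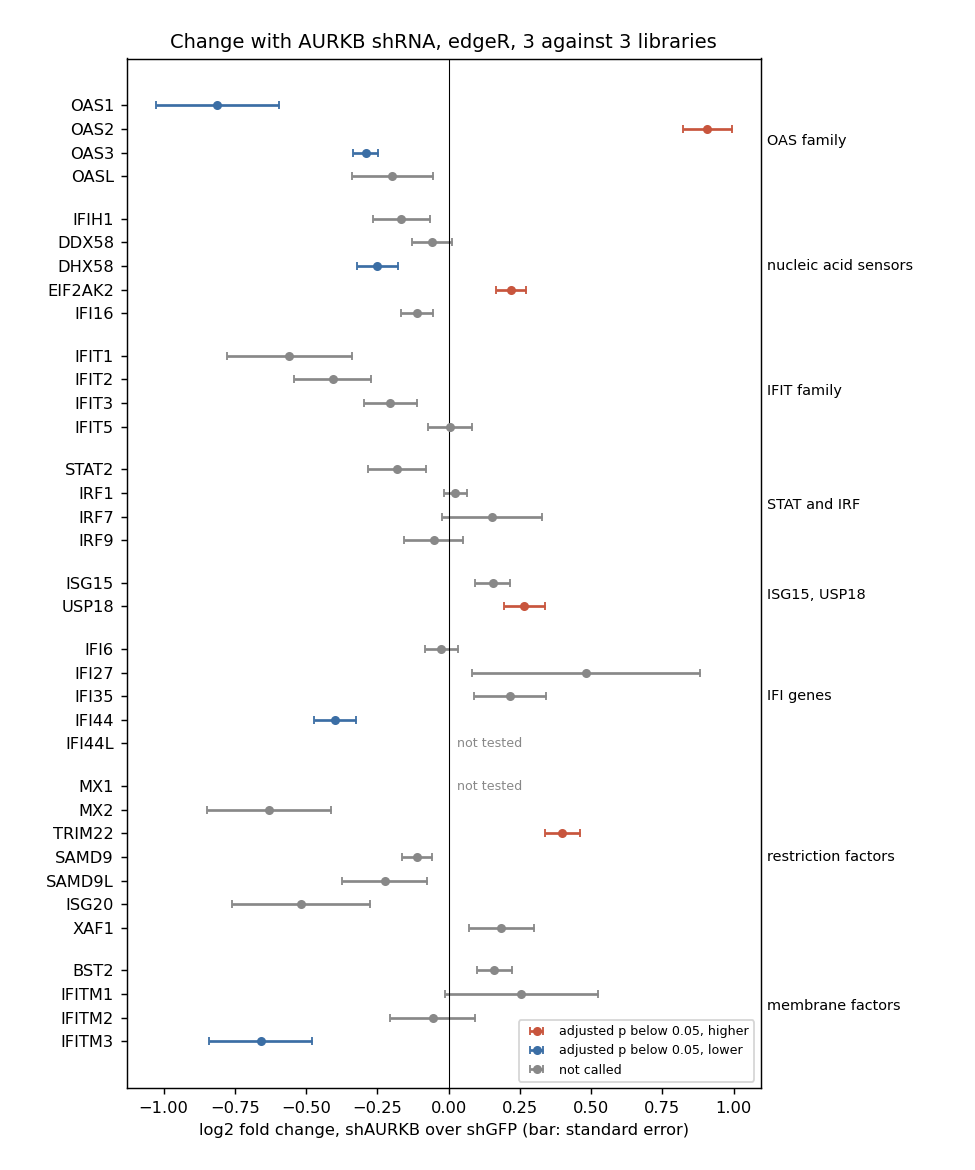
Log2 fold change of each gene with AURKB shRNA over control shRNA (horizontal axis), by family, with bars for the standard error (3 libraries per arm). Red and blue points passed the edgeR test, grey points did not, and IFI44L and MX1 had too few reads to be tested. OAS2 lies farthest to the right at 0.91, and OAS1 farthest to the left at -0.81.

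In the OAS family 1 gene rose, 2 fell and 1 was not called (75% of 4 genes called, beside 23.3% of all tested genes). The genes OAS1, OAS3 and OAS2 lie side by side on chromosome 12 (GRCh38), on the plus strand, with 5129 bases between OAS1 (112906777 to 112933222) and OAS3 (112938352 to 112973249) and 5145 bases between OAS3 and OAS2 (112978395 to 113011723). OAS2 was at 37.9, 45.2 and 36.9 CPM in shGFP replicates 1 to 3 and at 77.8, 73.5 and 73.8 CPM in shAURKB replicates 1 to 3. Every treated library lay well above every control. Its mean rose from 40.0 ± 4.53 to 75.0 ± 2.37 CPM (SD, n = 3), a log2 fold change of 0.91 ± 0.09 (SE, edgeR adjusted p = 9.60e-04) or 1.87-fold, and the call held under all 16 alternatives. OAS3, the largest enzyme of the family, went the other way: 166.0, 169.5 and 157 CPM in the controls against 133, 133 and 136 CPM. The arms did not overlap, and the log2 fold change of -0.29 ± 0.04 (edgeR adjusted p = 5.13e-03) also held under all 16.

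OAS1, the smallest enzyme of the cluster, had few reads, with 8.87, 8.06 and 5.62 CPM in the controls and 3.85, 5.07 and 3.89 CPM with AURKB shRNA. The lowest control lay just above the highest treated library. Its log2 fold change of -0.81 ± 0.22 (edgeR adjusted p = 0.0363) left 57.0% of the control level. The call ended in 9 of 16 alternatives, among them any left-out library other than shGFP replicate 3 (adjusted p 0.0211 to 0.127), and with log2(FPKM + 1) the value was -0.33. OASL, on the same chromosome but some 8007387 bases beyond OAS2, encodes a family member without enzyme activity that supports RIG-I. It was at 5.19, 6.02 and 5.04 CPM in the controls and 4.73, 4.49 and 4.93 CPM in the treated arm, a log2 fold change of -0.20 ± 0.14 that was not called (edgeR adjusted p = 0.380). In level per length, OAS3 led in both arms: in FPKM, which divides by gene length and depth, it was at 14.8 ± 0.572 in the controls and 11.7 ± 0.145 in the treated arm (SD, n = 3), beside 3.84 ± 0.432 and 6.94 ± 0.227 for OAS2. OAS1 shares 92 exon bases with the antisense gene AC004551.1, which had 10 reads in all controls together and 5 in the treated arm.

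**Figure D2:**
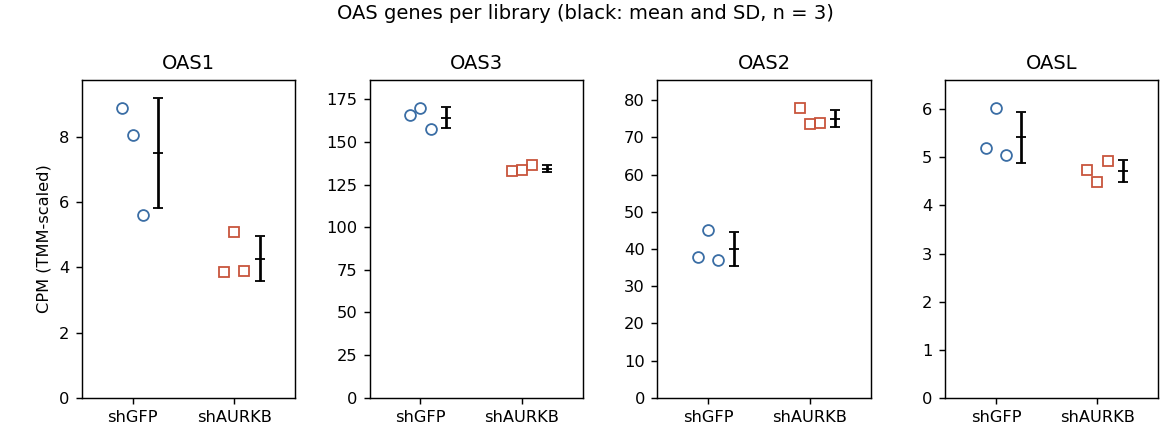
TMM-scaled CPM of the 4 OAS genes in each library (vertical axes from 0, separate for each gene), with the mean and SD of 3 libraries in black. OAS2 rose from 40.0 to 75.0 CPM, while the neighbours OAS1 and OAS3 lay lower in every shAURKB library.

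Of the 5 sensors, 1 rose, 1 fell and 3 were not called (40% called, beside 23.3% of all tested genes). EIF2AK2, the PKR gene, was at 169, 158 and 167 CPM in the controls and 202, 182 and 190.0 CPM with AURKB shRNA. All treated libraries were above all controls. Its log2 fold change was 0.22 ± 0.05 (edgeR adjusted p = 0.0256), a call lost in 9 of 16 alternatives, including every one that left out a library except shAURKB replicate 2 (adjusted p 0.0255 to 0.140 over all 16). It shares 35 exon bases with GPATCH11 on the opposite strand, which was called higher by 0.26. DHX58 encodes LGP2, a helicase that modulates RIG-I and MDA5 without signalling itself. It was at 34.8, 32.2 and 31.1 CPM in the controls and 27.9, 28.1 and 26.5 CPM in the treated arm, with no overlap. It fell by 0.25 ± 0.07 (edgeR adjusted p = 0.0474), and the call was lost in 11 of 16 alternatives, among them each left-out library (adjusted p 0.0270 to 0.143).

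The signalling helicases were not called. IFIH1 (MDA5) ranged over 18.6 to 23.5 CPM in the controls and 18.7 to 19.3 CPM in the treated arm, with a log2 fold change of -0.17 ± 0.10 (edgeR adjusted p = 0.270). DDX58 (RIG-I) ranged over 46.8 to 53.7 and 46.7 to 50.1 CPM, at -0.06 ± 0.07 (edgeR adjusted p = 0.593). The arms overlapped in both genes. IFI16, a nuclear sensor of DNA, was the most abundant sensor by FPKM, at 28.9 ± 0.0523 in the controls and 25.8 ± 2.03 in the treated arm (SD, n = 3). Its control libraries were almost identical at 279.1 to 279.9 CPM, the treated ones at 236 to 274 CPM lay below them, and the log2 fold change of -0.11 ± 0.06 was not called (edgeR adjusted p = 0.203).

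The IFIT genes, which encode proteins that bind foreign RNA ends, lie together on chromosome 10. None of the 4 was called (2 lower and none higher at an unadjusted edgeR p below 0.05, and none by DESeq2 or limma-voom). IFIT1 was at 6.42, 5.82 and 5.37 CPM in the controls and 5.25, 3.12 and 3.51 CPM in the treated arm, with a log2 fold change of -0.56 ± 0.22 (edgeR adjusted p = 0.110). IFIT2 was at 13.3, 14.6 and 13.1 CPM against 8.58, 10.6 and 11.7 CPM, at -0.41 ± 0.13 (edgeR adjusted p = 0.0702). IFIT3 ranged over 18.0 to 20.7 CPM against 15.8 to 17.9 CPM, at -0.21 ± 0.09 (edgeR adjusted p = 0.158). In these 3 genes the treated libraries all lay below the controls, in IFIT3 with almost no gap. Arms that did not overlap, in either direction, were found in 42.6% of all tested genes. IFIT1 was called without shAURKB replicate 1 (log2 fold change -0.82, adjusted p = 0.0326, and 0.0326 to 0.261 over the alternatives), and IFIT2 with upper-quartile scaling (-0.46, adjusted p = 0.0470, and 0.0470 to 0.176). IFIT5 was at 20.3 to 21.7 CPM in the controls and 20.5 to 22.6 CPM in the treated arm, with a log2 fold change of 0.01 ± 0.08 whose sign turned under 6 alternatives.

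The transcription factors of the response were not called (0 of 4 by edgeR, also at an unadjusted p below 0.05, by DESeq2 and by limma-voom), and their arms overlapped in every case. STAT2 ranged over 63.3 to 76.1 CPM in the controls and 54.0 to 66.1 CPM with AURKB shRNA (log2 fold change -0.18 ± 0.10). IRF9, the DNA-binding partner of STAT2, ranged over 9.90 to 10.9 and 9.75 to 10.6 CPM (-0.05 ± 0.10). It shares 1838 exon bases with the same-strand gene AL136295.5, which had 435 reads in the controls and 277 in the treated arm and was not called. IRF7, the factor that amplifies interferon-alpha genes, was at 5.37 to 6.42 and 5.60 to 7.78 CPM (0.15 ± 0.18, and -0.01 without shAURKB replicate 3). IRF1 was the most abundant factor at 225 to 242 and 233 to 245 CPM (0.02 ± 0.04). Its sign turned under 5 alternatives, 1 of them upper-quartile scaling, under which the log2 fold change of the median gene was 0.05 lower. IRF1 shares 1716 exon bases with C5orf56 on the other strand, which was called lower by 0.35.

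**Figure D3:**
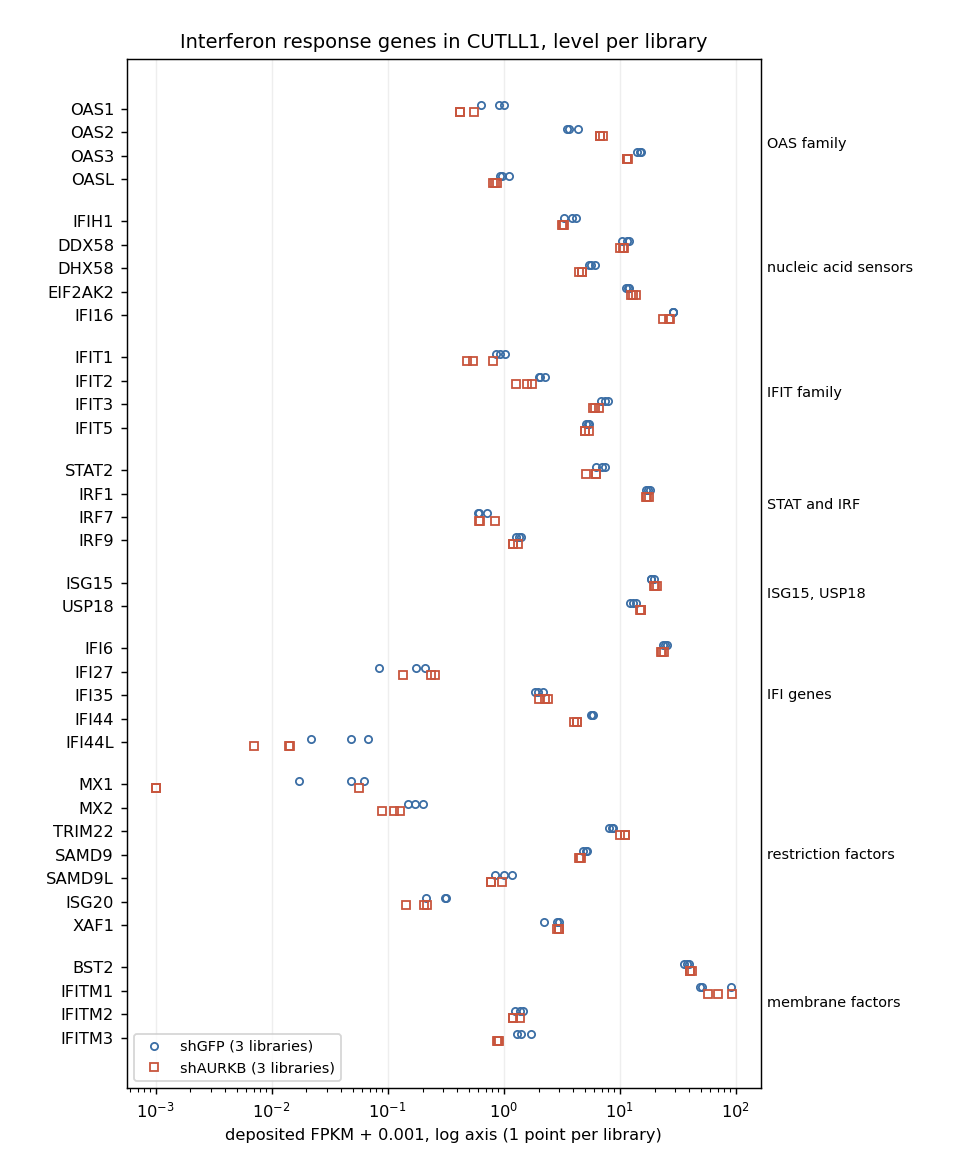
Deposited FPKM plus 0.001 on a log axis for each of the 35 genes, with 1 point per library (circles shGFP, squares shAURKB). The levels span from at most 0.0673 FPKM in MX1 and IFI44L to 49.2 to 92.5 FPKM in IFITM1, and in most genes the arms lie close together.

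Among the effector genes, TRIM22 and IFI44 were the clearest. TRIM22, a ubiquitin ligase that restricts retroviruses, was at 75.5, 74.1 and 71.0 CPM in the controls and 100.7, 90.2 and 99.8 CPM in the treated arm. Its arms lay far apart, and the rise of 0.40 ± 0.06 in log2 (edgeR adjusted p = 5.25e-03) held under all 16 alternatives. IFI44 was at 21.4, 21.2 and 20.7 CPM in the controls and 16.4, 15.4 and 16.2 CPM in the treated arm. Replicates of each arm lay tightly together, and the log2 fold change of -0.40 ± 0.07 (edgeR adjusted p = 0.0101) was called under all 16. Its neighbour IFI44L, 3650 bases away on chromosome 1, was too low to test, with 10, 3 and 8 reads in the controls and 1, 2 and 2 reads in the treated arm, a ratio of control to treated of 4.25 with a 95% interval of 1.56 to 14.4 that covers counting error only.

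Of the ubiquitin-like modifier ISG15 and its protease USP18, the protease gene rose. USP18, which removes ISG15 from proteins and dampens receptor signalling, was at 29.3, 25.5 and 27.3 CPM in the controls and 33.2, 32.5 and 33.0 CPM in the treated arm. No treated library reached down to a control, and it rose by 0.27 ± 0.07 (edgeR adjusted p = 0.0398), but 10 of 16 alternatives lost the call, among them each left-out library except shGFP replicate 1 (adjusted p 0.0373 to 0.111). ISG15 was at 40.0, 37.9 and 38.1 CPM against 44.5, 42.6 and 42.0 CPM, also without overlap, with a log2 fold change of 0.15 ± 0.06 that was not called (edgeR adjusted p = 0.109).

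The membrane proteins that block virus entry and release included the most and some of the least abundant members. IFITM1 led the set per length at 63.7 ± 23.3 FPKM in the controls and 73.3 ± 17.8 FPKM in the treated arm (SD, n = 3). Its libraries differed up to 1.84-fold within an arm, at 192, 105 and 109 CPM in the controls and 154, 126 and 204 CPM in the treated arm. The arms overlapped, and the log2 fold change of 0.25 ± 0.27 was not called (edgeR adjusted p = 0.537). IFITM3 was at 2.74, 3.59 and 2.97 CPM in the controls and 1.93, 1.95 and 1.99 CPM in the treated arm. It fell by 0.66 ± 0.18 (edgeR adjusted p = 0.0393), but 10 of 16 alternatives lost the call, each left-out library among them (adjusted p 0.0251 to 0.227), and with log2(FPKM + 1) the value was -0.38. IFITM3 shares 287 exon bases with AC136475.5 on the other strand, which had 108 reads in the controls and 69 in the treated arm and was not called. IFITM2 was at 3.69 to 4.34 and 3.70 to 4.20 CPM (-0.06 ± 0.15), and its annotated span contains that of IFITM1, with 351 shared exon bases. The IFITM genes are close copies, so the split of reads among them is uncertain. BST2, the tether that holds budding viruses to the cell, was at 58.0, 54.3 and 60.8 CPM against 63.4, 66.4 and 63.6 CPM. Its treated libraries all lay above the controls, but the log2 fold change of 0.16 ± 0.06 was not called (edgeR adjusted p = 0.104).

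The remaining effectors were not called. MX1, a dynamin-like GTPase and a standard marker of interferon action, was nearly silent, with 6, 2 and 9 reads in the controls and 0, 7 and 0 in the treated arm, and was too low to test. The ratio of control to treated was 2.46, with a 95% interval of 0.968 to 7.01 that covers counting error only. MX2, a relative of MX1, was at 3.30, 2.43 and 2.81 CPM against 1.49, 2.15 and 1.90 CPM, without overlap (log2 fold change -0.63 ± 0.22, edgeR adjusted p = 0.0788). SAMD9, an antiviral translation inhibitor, was at 83.0 to 90.1 CPM against 78.9 to 82.1 CPM (-0.11 ± 0.05), and its neighbour SAMD9L at 16.7 to 23.5 against 15.8 to 19.6 CPM (-0.22 ± 0.15). The exonuclease ISG20 (-0.52 ± 0.24) and the apoptosis factor XAF1 (0.18 ± 0.11), which shares 2535 exon bases with PRAL on the other strand, overlapped between arms, as did IFI6 (-0.03 ± 0.06), IFI27 (0.48 ± 0.40) and IFI35 (0.21 ± 0.13). IFI27, often among the most strongly induced interferon genes, had only 7 to 15 reads per control library and 11 to 19 per treated library. Across the 33 tested members, which share the same libraries, the log2 fold change was higher in more abundant genes (Spearman's rho 0.42), as it was across all 14818 tested genes (0.29).

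Beyond the set, interferon transcripts themselves were scarcely present. Over 22 interferon genes there were 4, 4 and 6 reads in the control libraries and 1, 1 and 1 in the treated ones. IFNB1, the beta interferon gene, had 2, 1 and 4 reads in the controls and 0, 1 and 0 in the treated arm. Every control library had more of these reads than every treated library, but the counts are very low, and none of the 22 genes had enough reads for a test.

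Of the other pathway genes, 97 of 133 listed were tested, 17 rose and 18 fell, which is 36.1% of those tested, beside 23.3% of all tested genes. The 35 calls were spread unevenly, with 14 of them in the list of 18 tested negative regulators. Among receptors and their signalling proteins, 3 of 9 fell and none rose (none also at an unadjusted edgeR p below 0.05, by DESeq2 or by limma-voom). The called share was 33.3%, beside 23.3% of all tested genes, where 10.9% were lower. IL10RB, a subunit of the interferon-lambda receptor and of that for IL-10, fell most: it was at 52.5, 50.4 and 53.4 CPM in the controls and 40.7, 35.1 and 38.4 CPM in the treated arm (log2 fold change -0.45 ± 0.07, edgeR adjusted p = 6.10e-03). IFNAR2, a subunit of the receptor for alpha and beta interferons, named after its values were seen, fell by 0.23 ± 0.07 (edgeR adjusted p = 0.0488, lost in 9 of 16 alternatives, any left-out library but shAURKB replicate 2 among them, adjusted p 0.0248 to 0.137), and IFNAR1 was at -0.07 ± 0.05, not called.

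Of 15 tested genes of sensing, adaptors and kinases that carry the alarm onward, 5 fell (33.3% called, beside 23.3% of all tested genes, where 10.9% were lower) and none was called higher (2 higher at an unadjusted edgeR p below 0.05, 1 by DESeq2 and 1 by limma-voom), and the median log2 fold change was -0.13. TLR9, the endosomal receptor for unmethylated DNA, was at 12.5, 13.1 and 14.3 CPM in the controls and 5.25, 4.29 and 5.40 CPM in the treated arm. Every treated library lay far below the controls, at 37.6% of their level (log2 fold change -1.41 ± 0.13, edgeR adjusted p = 9.65e-04). The other 4 fallers, named after their values were seen, were TMEM173 (STING, the adaptor of DNA sensing, -0.60 ± 0.11), TLR3 (the endosomal receptor for double-stranded RNA, -0.52 ± 0.09), TRAF6 (-0.44 ± 0.08) and MAVS (-0.18 ± 0.04). The edgeR adjusted p of TLR3 was 8.52e-03, and the call was lost in 1 alternative, limma-trend on log2(FPKM + 1) without a filter (-0.32, adjusted p = 0.0593, the highest of a range from 5.96e-03). That of MAVS was lost in 6 of 16, among them without shGFP replicate 1 or 3 or shAURKB replicate 1 or 3 (edgeR adjusted p = 0.0186, 7.52e-03 to 0.0631). The DNA sensor gene MB21D1 (cGAS) had 1 to 13 reads per library and was not tested.

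Among 11 genes that edit or clear self RNA and DNA, 2 rose and none was called lower (1 lower at an unadjusted edgeR p below 0.05, none by DESeq2 or limma-voom). The called share was 18.2%, below the 23.3% of all tested genes. PNPT1, a mitochondrial RNA-degrading enzyme, rose from 69.7, 73.7 and 75.8 CPM to 93.0, 94.2 and 98.6 CPM (log2 fold change 0.38 ± 0.05, edgeR adjusted p = 4.04e-03). ADAR, the editor of double-stranded RNA, had a log2 fold change of 0.02 ± 0.03 and was not called.

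Of 18 negative regulators tested, 8 rose and 6 fell (median -0.05), which is 77.8% of them, beside 23.3% of all tested genes. The difference between these shares was not tested, and the list was chosen with earlier results of these data known. PIAS4, a SUMO ligase that restrains cytokine signalling, was at 38.1, 31.2 and 32.8 CPM in the controls and 46.0, 47.8 and 42.6 CPM in the treated arm (0.42 ± 0.09, edgeR adjusted p = 0.0199, lost in 5 of 16 alternatives, among them without shGFP replicate 2 or 3 or shAURKB replicate 1 or 2, adjusted p 7.34e-03 to 0.0698). CYLD, a deubiquitinase that dampens RIG-I signalling, was at 33.7, 33.3 and 27.4 CPM against 21.98, 17.3 and 18.3 CPM (-0.71 ± 0.12, edgeR adjusted p = 8.44e-03, lost in 1 of 16, log2(FPKM + 1) without a filter, at -0.41, adjusted p 1.71e-04 to 0.0583).

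A list of 50 genes known to be induced by interferon, which holds ADAR again, also went both ways. Of 45 tested, 7 rose, 4 fell and 34 were not called, with a median of 0.03. Those called made up 24.4%, near the 23.3% called among all tested genes (12.5% higher and 10.9% lower). CMPK2, a mitochondrial nucleotide kinase gene, rose most, from 88.3, 90.8 and 100.1 CPM to 130, 142 and 131 CPM (0.53 ± 0.07, edgeR adjusted p = 2.42e-03). GBP5, a guanylate-binding protein gene, fell most, from 11.5, 12.03 and 12.97 CPM to 3.15, 4.49 and 5.22 CPM (-1.51 ± 0.19, edgeR adjusted p = 2.47e-03), which left 35.1% of the control level, and was at -0.66 with log2(FPKM + 1). SLFN5, a Schlafen family gene named after its values were seen, fell by 0.63 ± 0.05 (edgeR adjusted p = 5.18e-04). RSAD2, which encodes the antiviral enzyme viperin and lies beside CMPK2, was at 52.2 to 55.1 CPM against 51.6 to 59.1 CPM and was not called (0.08 ± 0.07).

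**Figure D4:**
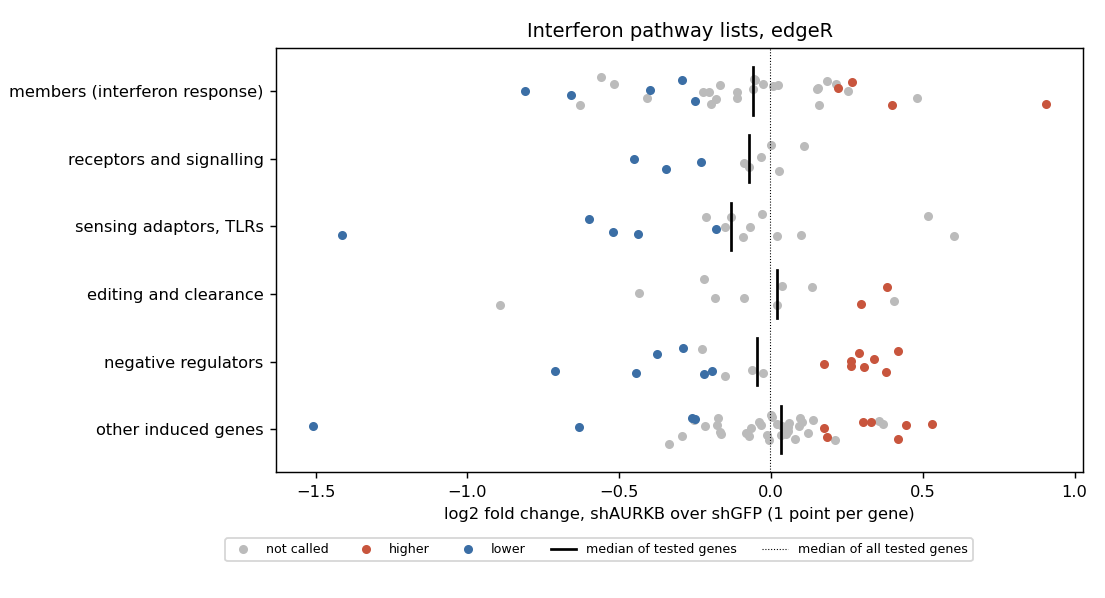
Log2 fold change of each tested gene (horizontal axis, 1 point per gene) in the interferon response set and in 5 further pathway lists, with the list median as a black bar and the median of all tested genes dotted. Points lie on both sides of 0 in every list, all called genes of the receptor and sensing lists lie to the left, and GBP5 (-1.51) and TLR9 (-1.41) are the lowest.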

How the data were processed

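HISAT2 2.0.4, StringTie 1.3.0, edgeR and GRCh38 (hg38) are named in the submitters' processing notes. Of each tool's role, the strand setting and reads that map to several places, nothing more is given in the sources used here. The authors deposited 1 whole-number count for each gene and library. The authors' second set of columns holds FPKM, used here to compare levels between genes and in alternatives. Of the 35 genes, 33 had the position of GENCODE release 29, and 12 share exon bases with another annotated gene.

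Genes were kept by filterByExpr in edgeR 4.0.16 under R 4.3.3, with a minimum count of 10 and a minimum total of 15. The 14818 genes left were scaled by TMM and tested by quasi-likelihood, with the arm as the single term. The test was two-sided, and p was adjusted by Benjamini-Hochberg over all tested genes, with a threshold of 0.05. The biological coefficient of variation was 0.127. Libraries of an arm differed by more than sampling noise (chi-square over its degrees of freedom 6.73 to 7.61), so none was counted as a copy. The fits were first tested on simulated data. CPM are TMM-scaled, except summed levels, which use the total count. Intervals cover counting error only.

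The members and lists were chosen with earlier results of these data known. The naming rule takes AURKB, all members and, per pathway list, the called gene with the largest rise and with the largest fall. Alternatives changed the scaling (RLE, upper quartile), the tool (DESeq2 1.42.0, limma-voom of limma 3.58.1) or the filter (none, or 1 CPM in 3 libraries). Others used replicate number as a block, dropped a library at a time, or ran limma-trend on log2(FPKM + 1) with at least 0.5 FPKM in 3 libraries, with a pseudocount of 0.1 instead, or with no filter. The values of 1 gene of the pathway lists are not reported here.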

Additional observations from a re-analysis of the deposited data

How the results depend on the processing

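Of the 9 called members, OAS2, OAS3, TRIM22 and IFI44 were called under all 16 alternatives, and the other 5 lost their call under some, always in the same direction. Members called higher numbered 4, but 2 with upper-quartile scaling and with FPKM without a filter, and 2 to 3 when a library was left out. Members called lower numbered 5, but 3 without the low-count filter and with DESeq2, 2 with FPKM without a filter, and 2 to 3 when a library was left out. Pathway genes called higher numbered 17, but 8 with FPKM without a filter and 11 to 15 with a library left out (11 without shAURKB replicate 2). Those called lower numbered 18, but 11 without the low-count filter and 11 to 14 with a library left out (11 without shAURKB replicate 1). Over all genes, 1847 were higher (914 with FPKM without a filter) and 1609 lower (998 to 1056 with any library left out). AURKB stayed between -1.42 and -1.28 under all 16.

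The replicate numbers did not pair the libraries: same-numbered libraries had correlations of deviations of -0.09, -0.03 and -0.04, and none correlated best with its own number. With the replicate number as a block, 1027 genes, 2 members and 10 pathway genes were called lower.

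The sign turned in members near 0, none of them called. IFIT5 was at -0.0481 with upper-quartile scaling, -0.0453 with log2(FPKM + 0.1), -0.0387 with log2(FPKM + 1) with and without a filter, and -0.0373 to 0.0333 with a library left out, negative without shGFP replicate 1 or shAURKB replicate 3. IRF1 was at -0.0302 with upper-quartile scaling, -0.0260 with log2(FPKM + 1) with and without a filter, -0.0273 with log2(FPKM + 0.1) and -0.0017 (without shGFP replicate 3) to 0.0499 with a library left out. IRF7 ran from -0.0115 (without shAURKB replicate 3) to 0.241, IFI6 from -0.0515 to 4.5e-05 (without shGFP replicate 2) and IFITM2 from -0.118 to 3.8e-04 (without shGFP replicate 1). The cause of these changes was not tested. MX1, IFI44L and the 22 interferon genes were too shallow for a test.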

Other observations

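Several pathway genes, picked after their values were seen, differed widely between libraries of the same arm. SLFN11, a Schlafen gene that responds to interferon, was at 173, 59.1 and 159 CPM in shGFP replicates 1 to 3 and at 103, 184 and 62.1 CPM in shAURKB replicates 1 to 3, with a log2 fold change of -0.16 ± 0.49 (edgeR adjusted p = 0.840). TRAF3, a ubiquitin ligase between MAVS and TBK1, was at 68.6, 54.0 and 104.6 CPM in the controls and 46.2, 121 and 49.9 CPM in the treated arm (-0.07 ± 0.41, edgeR adjusted p = 0.922). MYD88, the adaptor of most Toll-like receptors, was at 50.6, 94.3 and 86.1 CPM in the controls and 107, 122 and 123 CPM in the treated arm. All its treated libraries lay above the controls, but 1 control stood far below the other 2, and the log2 fold change of 0.60 ± 0.21 was not called (edgeR adjusted p = 0.0824). APOBEC3B, a cytidine deaminase gene, had 21 reads in shGFP replicate 1, the library with reads of COL1A2 and keratin genes, 1 read in shAURKB replicate 1 and 0 in the others.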
